A study of Mus musculus with 3 samples.

Results

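The integrated stress response genes examined here are 32 genes that the transcription factor ATF4 is known to control or work with, namely stress factors and feedback genes, enzymes of asparagine, proline, cysteine, serine, glycine and mitochondrial folate metabolism, and amino acid transporters. They were listed by gene symbol with earlier results of these data known, and the rule itself uses no measured value. A probe was assigned to a gene through its RefSeq accession, and 31 of the 32 genes had such a probe, the exception being *Pycr1*, an enzyme of proline synthesis. All 31 were well above background on all 3 arrays, in the scanner software's own call. Among the 22907 genes with a named probe, 12242 were well above background on all 3 arrays.

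The samples were Colon26, a murine colon adenocarcinoma line, and its sublines LuM1 and NM11, of which LuM1 is labelled as highly metastatic and NM11 as weakly metastatic. The labels of all 3 lines give the strain as BALB/c and the sex as female, and the 3 lines were kept in the same medium, RPMI1640 with 10% fetal bovine serum and antibiotics, with no treatment. RNA was taken after 3 days of culture and hybridized to 1 single-colour array per line. Each line was thus measured once, so differences between lines have no replicate check and no p-value is given.

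ATF4 is the main effector of the integrated stress response. Kinases that sense amino acid shortage, endoplasmic reticulum stress, heme shortage or double-stranded RNA phosphorylate the initiation factor eIF2α, which lowers general translation but favours translation of *Atf4* mRNA through its upstream open reading frames. ATF4, paired with C/EBP proteins, then binds composite C/EBP-ATF elements near genes for amino acid synthesis, uptake and tRNA charging. Much of its control lies in translation, so the mRNA level of *Atf4* and the levels of its target mRNAs are separate measurements, and ATF4 protein was not measured here.

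The C/EBP-ATF element was looked for in windows around the start sites of these genes. RefSeq windows of the assembly GRCm38.p6, which reach from 250 bases before each start site to just past it, were at hand for 27 of the 32 genes. The letters TGATGNAA, searched on both strands, occurred in the windows of 8 of these 27 genes, against 4.51% of the 27025 genes with a window. The stricter letters TGATGCAA, which are a subset of the first motif, occurred in 6 of them, namely *Atf3*, *Nupr1*, *Chac1*, *Pycr1*, *Slc7a11* and *Slc1a4*, against 1.03% of all genes. Such a match is a description of the sequence, and binding of ATF4 was not measured. The stretches that hold the motif are shown for the 8 genes that have it. Each is read 5′ to 3′ on the gene's strand, with the motif in capitals (written TTNCATCA where it lies on the opposite strand).
Atf3: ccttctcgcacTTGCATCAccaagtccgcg
Nupr1: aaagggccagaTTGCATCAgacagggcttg
Trib3: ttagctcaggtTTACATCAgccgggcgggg
Chac1: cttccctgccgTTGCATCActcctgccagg
Asns: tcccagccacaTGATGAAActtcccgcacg
Pycr1: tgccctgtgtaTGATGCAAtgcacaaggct
Slc7a11: cTGATGCAAacctggagaatTTGCATCAt
Slc1a4: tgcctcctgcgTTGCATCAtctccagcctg

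Counted from the start site as +1, the match began at -110 in *Atf3* and in *Nupr1*, at -193 in *Chac1*, at -103 in *Pycr1*, at -23 in *Asns*, at -4 in *Slc1a4* and at 15 in *Trib3*. *Slc7a11*, which encodes the cystine and glutamate exchanger, held 2 matches in opposite orientation, at -66 and -47 from the start site of its promoter window. The RefSeq gene table places the start of *Slc7a11* farther upstream, whereas both sources give the same start for the other 7 genes. Which start of *Slc7a11* these lines use was not tested. The positions are given by strand and coordinates as chr1:191183425-191183454 (minus strand) for *Atf3*, chr7:126625562-126625591 (minus) for *Nupr1*, chr2:152344028-152344057 (minus) for *Trib3* and chr2:119351038-119351067 (plus) for *Chac1*. The others lay at chr6:7693214-7693243 (minus) for *Asns*, chr11:120643833-120643862 (minus) for *Pycr1*, chr3:50443652-50443680 (minus) for *Slc7a11* and chr11:20332699-20332728 (minus) for *Slc1a4*. The stretch in *Trib3* lies after the start site, and that in *Slc1a4* spans it. The 250 bases before the start site are given for a stress factor and for a biosynthetic enzyme whose mRNAs both were low in LuM1, *Atf3* at chr1:191183334-191183583 and *Asns* at chr6:7693210-7693459, both on the minus strand.
Atf3: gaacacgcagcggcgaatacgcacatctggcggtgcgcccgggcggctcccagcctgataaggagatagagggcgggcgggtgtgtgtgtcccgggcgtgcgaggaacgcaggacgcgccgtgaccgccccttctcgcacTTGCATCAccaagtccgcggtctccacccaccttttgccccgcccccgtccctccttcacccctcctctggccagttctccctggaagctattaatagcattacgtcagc
Asns: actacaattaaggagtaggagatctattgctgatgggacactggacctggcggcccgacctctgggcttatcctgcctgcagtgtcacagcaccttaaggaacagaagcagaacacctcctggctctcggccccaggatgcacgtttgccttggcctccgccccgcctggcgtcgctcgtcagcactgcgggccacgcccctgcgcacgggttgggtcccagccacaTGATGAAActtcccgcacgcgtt

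Levels are given as scaled signals, the background-subtracted brightness of a probe after the 75th percentile of every array was set to 400.8, with the scanner software's error for the spot after the ± sign. A level of one probe is not set against that of another probe. The software called 49.9% to 53.8% of the probes on an array well above background and none saturated. Ratios are given as log2 values of the brightest probe of each gene, and their scanner error was 0.20 for most of these genes. That error covers the reading of a spot, not the variation between cultures.

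The stress and amino acid genes were mostly lowest in LuM1. LuM1 had the lowest signal of the 3 lines for 27 of the 31 measured genes (87.1%), against 47.9% of all 12242 genes measured on every array. It was lowest for 18 of the 31 where arrays were scaled to *Hprt*. That scaling raised the median of all genes by 0.63 (log2) for LuM1 over NM11. The share of all genes lowest in LuM1 under it is not given here, so the 47.9% does not apply to that count. Between LuM1 and Colon26, 14 of the 31 genes reached a 2-fold lower signal in LuM1 and none a 2-fold higher one, where 12.2% of all named genes with a ratio or bound were at least 2-fold lower and 12.9% at least 2-fold higher. The median log2 ratio of the 31 genes was -0.89, against -0.15 over all genes. Between LuM1 and NM11, 11 genes were at least 2-fold lower in LuM1 and none was higher, against 9.42% and 10.6% of all named genes, with a median of -0.70 against -0.16 over all genes. Both comparisons use the same LuM1 array and so are not independent of each other. In bulk RNA, fewer cells that use a gene and less RNA per cell cannot be told apart.

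The 10 genes with at least a 2-fold lower signal in LuM1 against both other lines were *Ddit3*, *Atf3*, *Nupr1*, *Ppp1r15a*, *Cth*, *Psat1*, *Shmt1*, *Shmt2*, *Aldh1l2* and *Slc6a9*, where 4.74% of all named genes with both ratios were that low. None was at least 2-fold higher than in both, against 7.64% of all genes. *Atf3*, *Ppp1r15a*, *Cth* and *Aldh1l2* were at least 2-fold lower than in both lines under every alternative processing that gave a value for them.

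**Figure D1:**
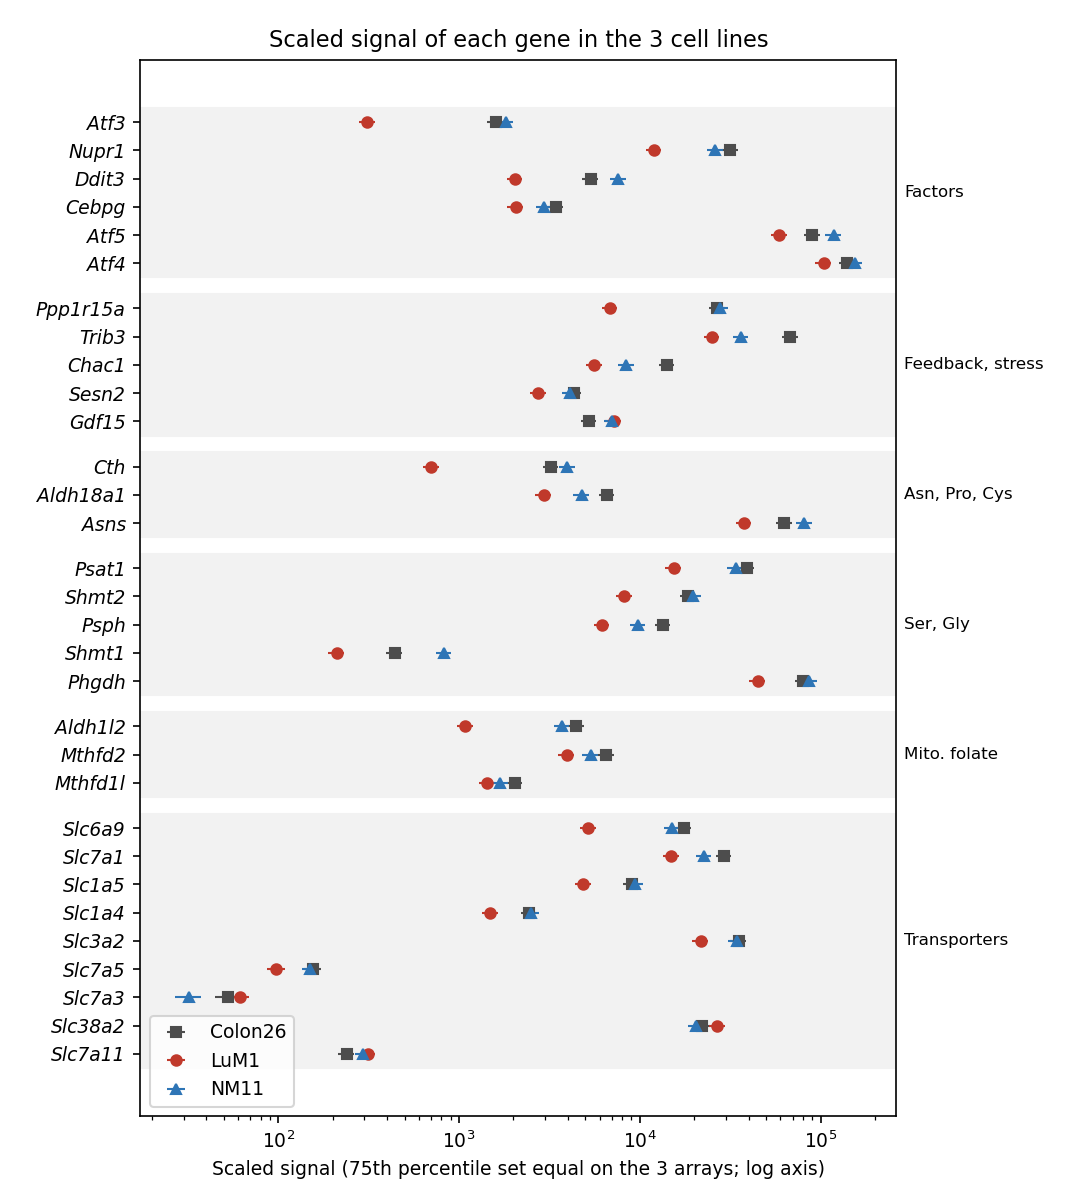
Scaled signal (log axis) of the 31 measured genes in Colon26 (squares), LuM1 (circles) and NM11 (triangles), grouped by role, with bars for scanner error on 1 array per line. The LuM1 circle is the leftmost point for 27 of 31 genes, and for 18 of 31 where arrays are scaled to *Hprt*.

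Of the 6 transcription factors, all were lower in LuM1 than in Colon26 and NM11, 3 of them by at least 2-fold in each comparison, except that *Atf4* turned above 0 against Colon26 with quantile normalization and with the authors' processed values, and *Atf4* and *Cebpg* did so against NM11 with scaling to *Hprt*. *Atf4* itself gave 139818 ± 13982 in Colon26, 104026 ± 10403 in LuM1 and 154231 ± 15423 in NM11. LuM1 was the lowest, by log2 ratios of -0.43 against Colon26 and -0.57 against NM11, and the second *Atf4* probe gave -0.45 and -0.55. The differences between lines in *Atf4* mRNA were therefore below 2-fold in both comparisons. *Atf3*, a stress-induced repressor and activator of the same bZIP family, gave 1595 ± 160 in Colon26, 310 ± 31.3 in LuM1 and 1820 ± 182 in NM11. It was 5.14-fold lower in LuM1 than in Colon26 and 5.87-fold lower than in NM11, the farthest apart of the 31 genes in both comparisons. *Ddit3*, which encodes the pro-apoptotic factor CHOP, gave 5353 ± 535, 2038 ± 204 and 7589 ± 759 in the same order of lines. LuM1 was thus lowest and NM11 highest, with log2 ratios of -1.39 against Colon26 and -1.90 against NM11. *Nupr1*, a small stress-inducible chromatin protein, gave 31680 ± 3168, 11969 ± 1197 and 26090 ± 2609, so that LuM1 stood below the other lines by -1.40 and -1.12 (log2). *Atf5*, another bZIP factor whose translation is raised under eIF2α phosphorylation, gave 90065 ± 9006, 59171 ± 5917 and 118301 ± 11830. Its log2 ratio to NM11 was -0.999, just short of 2-fold, and its ratio to Colon26 was -0.61. The second *Atf5* probe gave -1.20 against NM11, which is past 2-fold, and -0.65 against Colon26. *Cebpg*, a C/EBP partner of ATF4, gave 3426 ± 343, 2056 ± 206 and 2955 ± 296, again lowest in LuM1 but within 2-fold of both lines.

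The feedback and stress effector genes were lower in LuM1 for 4 of 5 members in both comparisons, although against NM11 only *Ppp1r15a* stayed lower with scaling to *Hprt*. *Ppp1r15a*, the stress-inducible subunit (GADD34) that directs a phosphatase to eIF2α and so closes the feedback loop, gave 26796 ± 2680 in Colon26, 6829 ± 683 in LuM1 and 27940 ± 2794 in NM11. Colon26 and NM11 differed by a log2 ratio of 0.06, within the scanner error, and LuM1 was 3.92-fold below the first and 4.09-fold below the second. *Trib3*, a pseudokinase that restrains ATF4, gave 67926 ± 6793, 25060 ± 2506 and 36314 ± 3631. *Chac1*, an enzyme that degrades glutathione, gave 14135 ± 1413, 5596 ± 560 and 8401 ± 840. For both genes the order was Colon26 above NM11 above LuM1, and at least 2-fold differences were seen only against Colon26 (-1.44 and -1.34, against -0.54 and -0.59 for NM11). *Sesn2*, a leucine-sensing inhibitor of mTORC1, gave 4312 ± 431, 2738 ± 274 and 4105 ± 411, lowest in LuM1 by -0.65 and -0.58. *Gdf15*, a secreted stress cytokine, went the other way, with 5238 ± 524 in Colon26, 7178 ± 718 in LuM1 and 7018 ± 702 in NM11. LuM1 and NM11 differed by 0.03 for *Gdf15*, within the scanner error, and both lay above Colon26.

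The 3 measured enzymes of asparagine, proline and cysteine synthesis were lower in LuM1 in both comparisons and under every alternative that gave a value. *Cth*, which makes cysteine from cystathionine, gave 3228 ± 323 in Colon26, 703 ± 70.4 in LuM1 and 3985 ± 399 in NM11. LuM1 was 4.59-fold and 5.67-fold below the other lines, which differed from each other by 0.30 (log2). The LuM1 spot of *Cth* lay in an area of the slide where spots above background on 1 array alone were clustered, and the part of that position in its value was not tested. Across all 31 genes, 9 spots lay in such areas. Without all clustered spots, 22 of the 25 genes left were below 0 against Colon26, 13 of them by at least 2-fold, and 20 of the 23 left were below 0 against NM11, 10 of them by at least 2-fold. *Asns*, asparagine synthetase, gave 62842 ± 6284, 37622 ± 3762 and 81299 ± 8130, with LuM1 2.16-fold below NM11 and 1.67-fold below Colon26. *Aldh18a1*, the first enzyme of proline synthesis from glutamate, gave 6579 ± 658, 2938 ± 294 and 4770 ± 477. Here the larger difference was against Colon26, 2.24-fold, with 1.62-fold against NM11.

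All 5 serine and glycine enzymes were lower in LuM1 than in Colon26 and NM11, under every alternative, with medians of -1.12 and -1.14 (log2). The pathway runs from the glycolytic intermediate phosphoglycerate through *Phgdh*, *Psat1* and *Psph* to serine. *Phgdh*, its first step, gave 79860 ± 7986 in Colon26, 44874 ± 4487 in LuM1 and 86489 ± 8649 in NM11. *Psat1*, the aminotransferase that follows, gave 39192 ± 3919, 15408 ± 1541 and 33967 ± 3397. *Psph*, the phosphatase that releases serine, gave 13413 ± 1341, 6184 ± 618 and 9767 ± 977. LuM1 was lowest at all 3 steps, by -0.83, -1.35 and -1.12 against Colon26 and by -0.95, -1.14 and -0.66 against NM11. *Shmt2*, the mitochondrial enzyme that converts serine to glycine, gave 18553 ± 1855, 8205 ± 821 and 19759 ± 1976, so that LuM1 was 2.26-fold and 2.41-fold below lines that differed by 0.09 (log2). *Shmt1*, its cytosolic counterpart, gave 441 ± 44.4, 210 ± 21.4 and 825 ± 82.6. LuM1 was lowest, Colon26 lay between and NM11 was highest, with -1.07 for LuM1 against Colon26 and -1.97 against NM11. Its second probe gave -0.63 and -1.63, the first of which was under 2-fold.

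The 3 enzymes of mitochondrial folate metabolism were lower in LuM1, except that *Mthfd1l* and *Mthfd2* turned above 0 against NM11 with scaling to *Hprt* and with the authors' processed values, and *Mthfd1l* also with scaling to the spike-in controls. *Aldh1l2*, which oxidizes formyltetrahydrofolate in mitochondria and yields NADPH, gave 4469 ± 447 in Colon26, 1087 ± 109 in LuM1 and 3710 ± 371 in NM11. LuM1 was 4.11-fold and 3.41-fold lower, and the second probe of the gene gave log2 ratios of -1.998 and -1.74, close to the -2.04 and -1.77 of the first. *Mthfd2*, the dehydrogenase and cyclohydrolase that oxidizes the one-carbon unit, gave 6525 ± 652, 3938 ± 394 and 5347 ± 535. *Mthfd1l*, which releases formate, gave 2036 ± 204, 1431 ± 143 and 1698 ± 170. These last 2 enzymes were lowest in LuM1 by less than 2-fold, with -0.73 and -0.51 against Colon26 and -0.44 and -0.25 against NM11.

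Among the 9 amino acid transporters, 6 were lower in LuM1 and 3 higher in both comparisons, although against NM11 4 were lower with scaling to *Hprt* and 7 when the probes of each gene were averaged. *Slc6a9*, the glycine transporter GlyT1, gave 17530 ± 1753 in Colon26, 5178 ± 518 in LuM1 and 15123 ± 1512 in NM11. It was the 1 transporter at least 2-fold lower in LuM1, by 3.39-fold and 2.92-fold. *Slc7a1*, a carrier of arginine and lysine, gave 29241 ± 2924, 14946 ± 1495 and 22635 ± 2263. *Slc1a5*, the glutamine carrier ASCT2, gave 9007 ± 901, 4860 ± 486 and 9427 ± 943. *Slc1a4*, the related carrier ASCT1, gave 2439 ± 244, 1486 ± 149 and 2505 ± 251. All of these carriers were lowest in LuM1 but within 2-fold of the other lines, at -0.97, -0.89 and -0.71 against Colon26. *Slc3a2*, the heavy chain shared by several exchangers, gave 35237 ± 3524, 21724 ± 2172 and 34398 ± 3440, and its partner *Slc7a5*, which carries large neutral amino acids, gave 155 ± 16.7, 97.5 ± 10.9 and 151 ± 15.8. Both were lowest in LuM1, but the second *Slc3a2* probe gave -0.15 against Colon26 where the brighter one gave -0.70, within and beyond the scanner error respectively.

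The transporters that were not lowest in LuM1 were *Slc7a11*, *Slc38a2* and *Slc7a3*. *Slc7a11*, the cystine importer, gave 239 ± 24.5 in Colon26, 313 ± 31.6 in LuM1 and 295 ± 29.8 in NM11, so that Colon26 was lowest. Its ratio of LuM1 to NM11 was 0.09, within the scanner error, and became -0.13 when its probes were averaged. *Slc38a2*, a small neutral amino acid carrier induced by amino acid shortage, gave 22187 ± 2219, 26887 ± 2689 and 20582 ± 2058, highest in LuM1 by 0.28 and 0.39. *Slc7a3*, a cationic amino acid carrier, was dim on every array, with 52.8 ± 7.95 in Colon26, 61.2 ± 7.57 in LuM1 and 32.2 ± 5.37 in NM11. It was highest in LuM1, with log2 ratios of 0.21 (scanner error 0.28) against Colon26 and 0.93 (scanner error 0.30) against NM11.

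**Figure D2:**
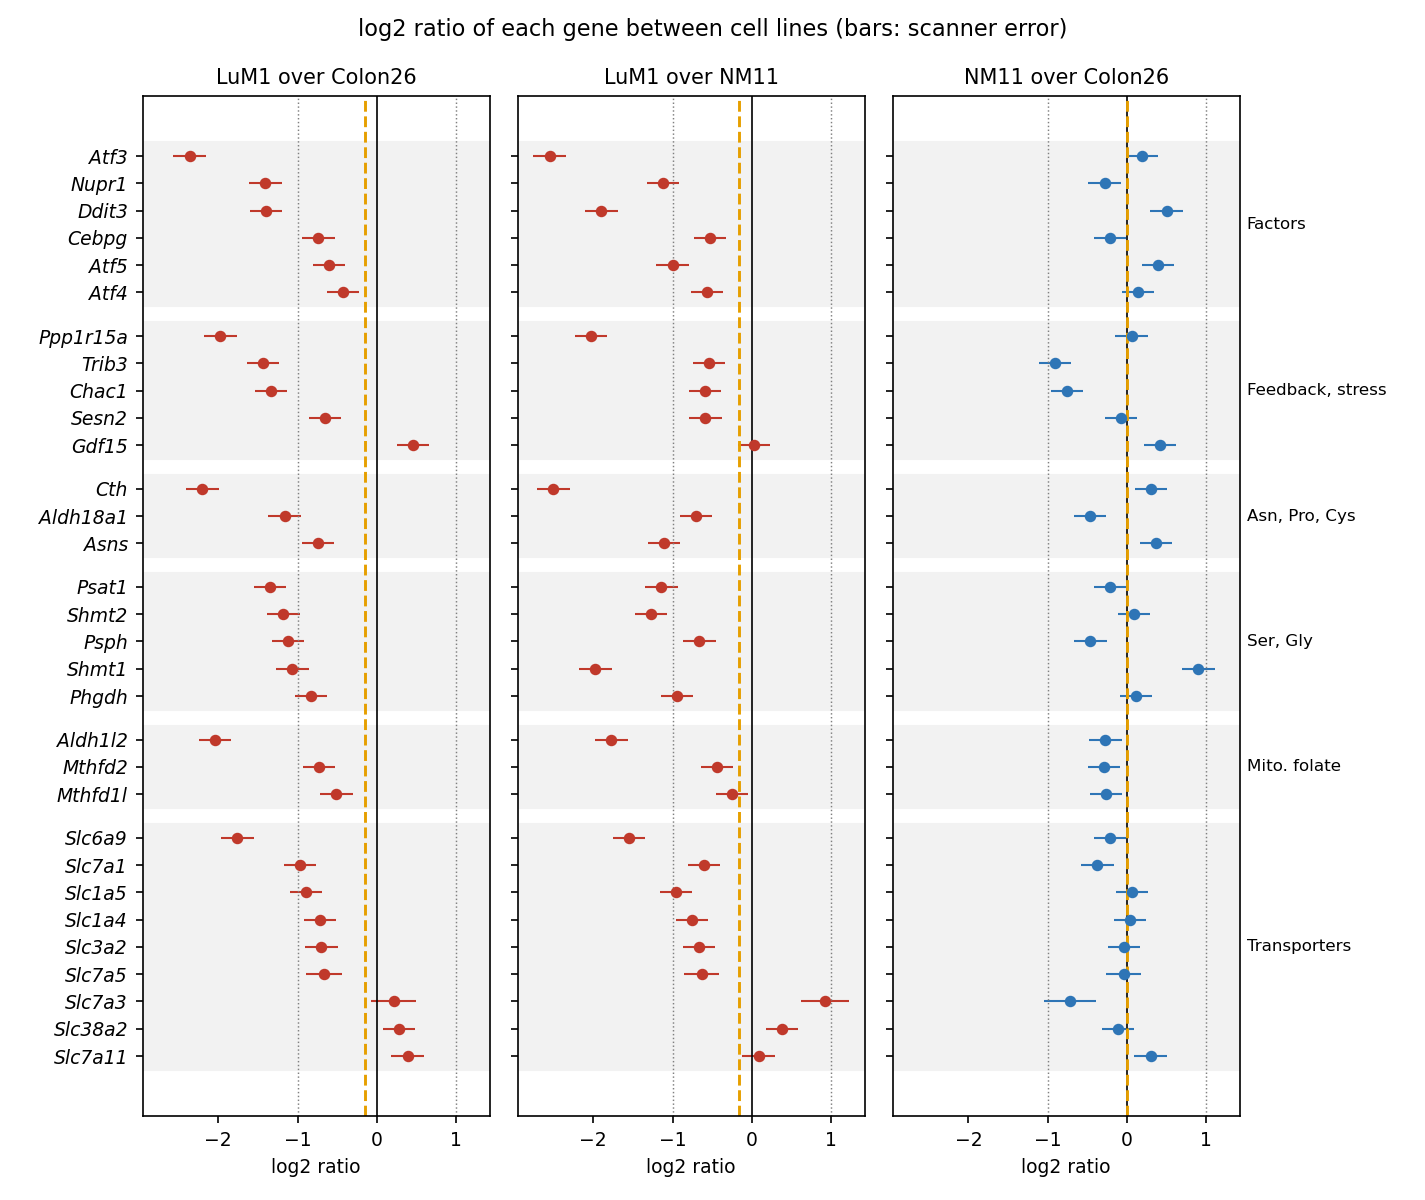
Log2 ratio of the 31 genes in each of the 3 comparisons, with bars for scanner error, dotted lines at 2-fold and a dashed line at the median of all measured genes. Most points lie left of 0 against both Colon26 and NM11 and near 0 between NM11 and Colon26, and 9 of the 31 genes change sign in LuM1 over NM11 where arrays are scaled to *Hprt*.

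NM11 and Colon26 were closer to each other for these genes. None of the 31 genes differed by 2-fold or more in either direction, where 7.55% of all named genes were at least 2-fold lower in NM11 and 8.65% at least 2-fold higher. The median log2 ratio was -0.04, against 0.00 over all genes, with 17 genes lower in NM11 and 14 higher. With scaling to *Hprt*, however, 30 of the 31 were lower in NM11. That scaling moved the median of all genes to -0.51 and the median of the 31 genes to -0.55. The genes farthest apart were *Trib3* (-0.90) and *Chac1* (-0.75), lower in NM11, and *Shmt1* (0.91), higher in NM11. Differences within the scanner error were found for 11 of the 31 genes between NM11 and Colon26, against 1 between LuM1 and Colon26 and 2 between LuM1 and NM11.

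The ratios of LuM1 to Colon26 were also read by the promoter sequences shown above. The median was -1.34 for the 7 measured genes whose window held TGATGNAA and -0.83 for the 19 whose window did not, and the ranges overlapped, from -2.36 to 0.39 and from -1.97 to 0.45. Against NM11 the medians were -0.75 and -0.66. *Atf3*, at the low end of the first range, and *Slc7a11*, at its high end, both carry the stricter motif.

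Genes near the same pathway were examined in lists of non-members. Of 20 aminoacyl-tRNA synthetases, which charge tRNAs with amino acids, all 20 were lower in LuM1 in both comparisons, although scaling to *Hprt* left 15 lower than in NM11 and the authors' processed values left 17 lower than in Colon26. Their medians were -0.90 and -0.82. At least 2-fold lower were 7 of them against Colon26, but 3 with the authors' processed values, and 6 against NM11, but 0 with scaling to *Hprt* or the authors' values and 1 unscaled, with the spike-in controls or with quantile normalization. The 3 at least 2-fold lower than in both lines were *Aars*, *Mars1* and *Lars*, for alanine, methionine and leucine, and none of them was so against NM11 with scaling to *Hprt* or the authors' values. *Lars* gave 29294 ± 2929 in Colon26, 7057 ± 706 in LuM1 and 14696 ± 1470 in NM11, 4.15-fold and 2.08-fold apart. The 13 genes for eIF2α itself, its kinases and their regulators, its phosphatase and eIF2B had medians of -0.30 and -0.39. These medians turned to 0.16 against Colon26 with the authors' processed values and to as much as 0.24 against NM11 with scaling to *Hprt*. Of these 13, 2 had at least a 2-fold lower signal against Colon26 and 1 a higher one, and 1 had a lower one against NM11. With the authors' values none was 2-fold lower and 2 were 2-fold higher in each comparison, and with scaling to *Hprt* none was lower and 3 were higher against NM11.

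Other known ATF4 targets were less uniform. Of 16, 12 were well above background on all arrays, with medians of -0.56 against Colon26 and -0.08 against NM11, the latter turning above 0 with 6 of the alternatives and up to 0.55 with scaling to *Hprt*. *Gpt2*, mitochondrial alanine aminotransferase, gave 5863 ± 586 in Colon26, 1680 ± 168 in LuM1 and 4814 ± 481 in NM11, 3.49-fold and 2.86-fold lower in LuM1, the latter below 2-fold with scaling to *Hprt*. The Colon26 spot of *Gpt2* lay in a clustered area of the slide. *Slc6a15*, a neutral amino acid transporter, gave 152 ± 15.7 in LuM1 and was not well above background in the other lines, at least 5.76-fold and 7.63-fold higher. That LuM1 spot lay in a clustered area of the slide. Of 14 endoplasmic reticulum genes of the ATF6 and XBP1 arms of the unfolded protein response, which do not run through ATF4, 2 reached a 2-fold lower signal against Colon26 and none against NM11, with medians of -0.08 and -0.21 that turned above 0 under some scalings, up to 0.38 with the authors' processed values and 0.43 with scaling to *Hprt*. Shares of all named genes that low were 12.2% against Colon26 and 9.42% against NM11.

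Further enzymes and transporters moved in both directions. Among 26 other enzymes of folate, serine, proline and glutamine metabolism, 5 reached a 2-fold higher and 6 a 2-fold lower signal in LuM1 when set against Colon26, and 4 and 3 when set against NM11. Over all named genes, the shares higher and lower were 12.9% and 12.2% against Colon26, and 10.6% and 9.42% against NM11. *Gldc*, the glycine decarboxylase, gave 118 ± 13.1 in Colon26, 1271 ± 127 in LuM1 and 111 ± 11.9 in NM11, 10.8-fold and 11.4-fold higher in LuM1. *Ass1*, which makes argininosuccinate from citrulline and aspartate, gave 109 ± 12.2, 8973 ± 897 and 1792 ± 179, 82.3-fold and 5.01-fold higher in LuM1. *Mthfs*, which returns a formylated folate to use, was higher by 1.42 and 1.76 (log2), and the folate enzyme *Mthfd1* and the serine carrier *Sfxn1* of mitochondria were lower by at least 2-fold. Of the 24 enzymes measured on all arrays, however, none was 2-fold lower than in NM11 with scaling to *Hprt* or the spike-in controls or with the authors' processed values. Of 26 other amino acid transporters, 12 were well above background on all arrays. *Slc7a7*, a light chain that exports cationic amino acids, gave 177 ± 18.9, 1453 ± 145 and 113 ± 12.3, 8.20-fold and 12.8-fold higher in LuM1. *Slc7a9*, the cystine transporter light chain, was well above background in LuM1 alone (76.8 ± 8.96, in a clustered area of the slide), and *Slc7a6* was lower in LuM1 by -1.22 and -1.02, the latter below 2-fold with scaling to *Hprt*.

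**Figure D3:**
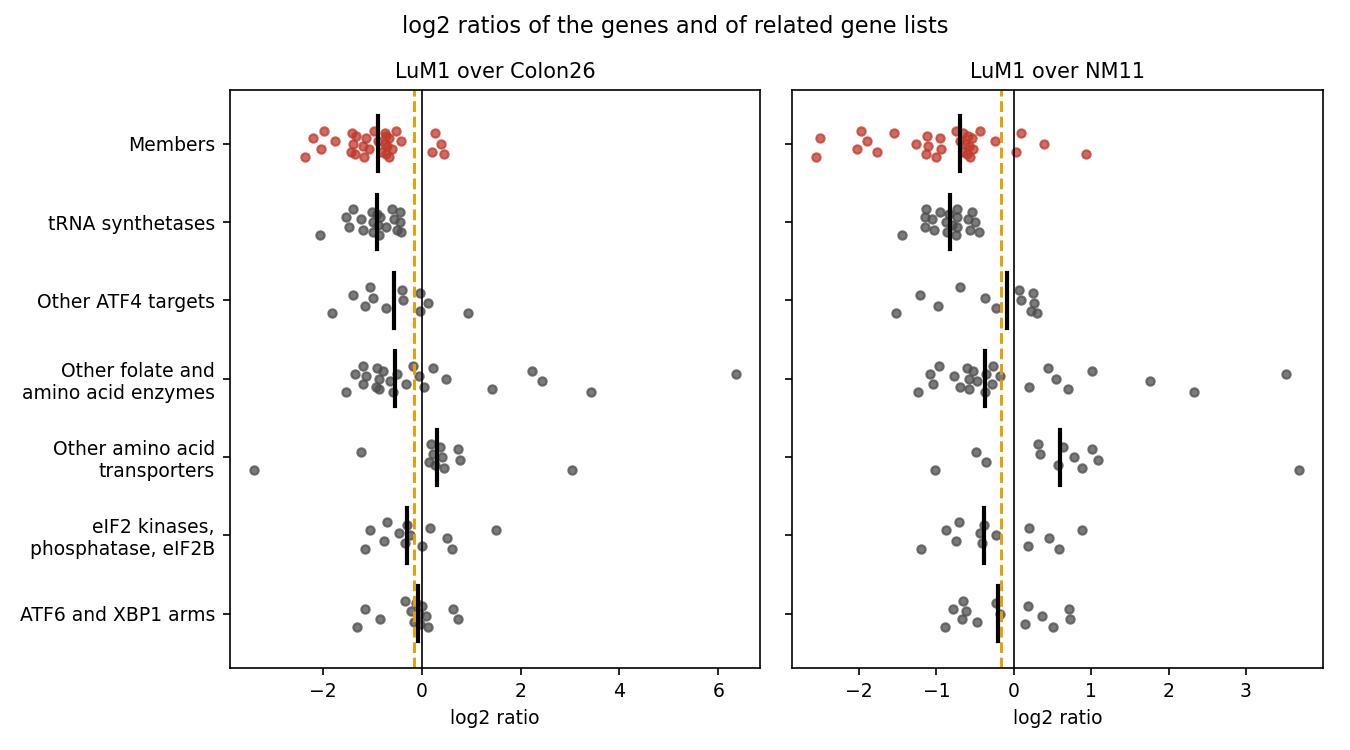
Log2 ratio of LuM1 over Colon26 (left) and over NM11 (right) for the 31 genes (red) and for genes of 6 related lists (grey) that were well above background on all arrays, with a bar at each median and a dashed line at the median of all measured genes. The members and the tRNA synthetases lie mostly left of 0 (with scaling to *Hprt*, 18 of 31 and 15 of 20 against NM11), and the other lists spread to both sides.

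Marker genes were read beside these results. Of 10 colon epithelium markers, *Krt18*, *Krt19*, *Cdh1*, *Vil1* and *Cdx1* were not well above background on any array, 4 to 5 were so per line, and the summed signal was 1321 in Colon26, 488 in LuM1 and 438 in NM11. The epithelial cadherin *Cdh1* and the simple keratins *Krt18* and *Krt19* were thus at background in lines labelled as colon adenocarcinoma, whereas *Krt8*, *Krt20*, *Cdx2* and *Lgals4* were measured in all 3. *Krt8* gave 28.9, 106 and 37.8 in Colon26, LuM1 and NM11, highest in LuM1. *Krt20* gave 651, 53.9 and 160, lowest in LuM1. *Cdx2* (443, 229 and 170) and *Lgals4* (198, 70.8 and 69.5) were highest in Colon26 and lowest in NM11. Of 7 fibroblast markers, 6 were well above background in Colon26 and 7 in the sublines, with summed signals of 168489 in Colon26, 106727 in LuM1 and 213790 in NM11, in which a few bright probes weigh most. Single markers went both ways: *Col1a2* gave 59908, 49.0 and 86816 and *Col1a1* 4919, 2220 and 6154 in Colon26, LuM1 and NM11, lowest in LuM1. *Pdgfra* gave 218, 3917 and 1310, highest in LuM1, and *Col3a1* gave 294, 1156 and 2702. *Thy1* gave 19326 in LuM1 and 15694 in NM11 and was not well above background in Colon26. Of 6 leukocyte markers, *Ptprc* and *Adgre1*, the defining ones, were not well above background anywhere, while *Cd68* was 5188 in LuM1 and 172 in Colon26, and the summed signal of the list was 12479 in LuM1 and 5195 to 5828 in the others. *Cdh5*, *Kdr* and *Tek* of the 4 endothelium markers (summed signal 51.3, 52.3 and 79.7 in the 3 lines) were also not well above background on any array. The part of these markers in the results above was not tested.

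Probe choice and scaling moved the values as follows. Of the 31 genes, 19 had 1 named probe, and the 11 with 2 usable probes differed by up to 0.55 between probes against Colon26 (*Slc3a2*) and 0.43 against NM11 (*Slc7a11*). *Hprt*, a housekeeping gene used as an internal control, gave 11103 ± 1110 in Colon26, 10227 ± 1023 in LuM1 and 15854 ± 1585 in NM11. Scaling to it raised the median of all genes by 0.12 for LuM1 over Colon26 and by 0.63 for LuM1 over NM11. The median of the 31 genes minus that of all genes was -0.74 (log2) against Colon26 and -0.54 against NM11. Scaling by 1 factor per array leaves this distance as it is, and quantile normalization gave -0.60 and -0.52. Against Colon26, 25 of the 31 lay among the lowest 3061 of the 12242 measured genes, as did 24 against NM11 and 6 in NM11 over Colon26.

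**Figure D4:**
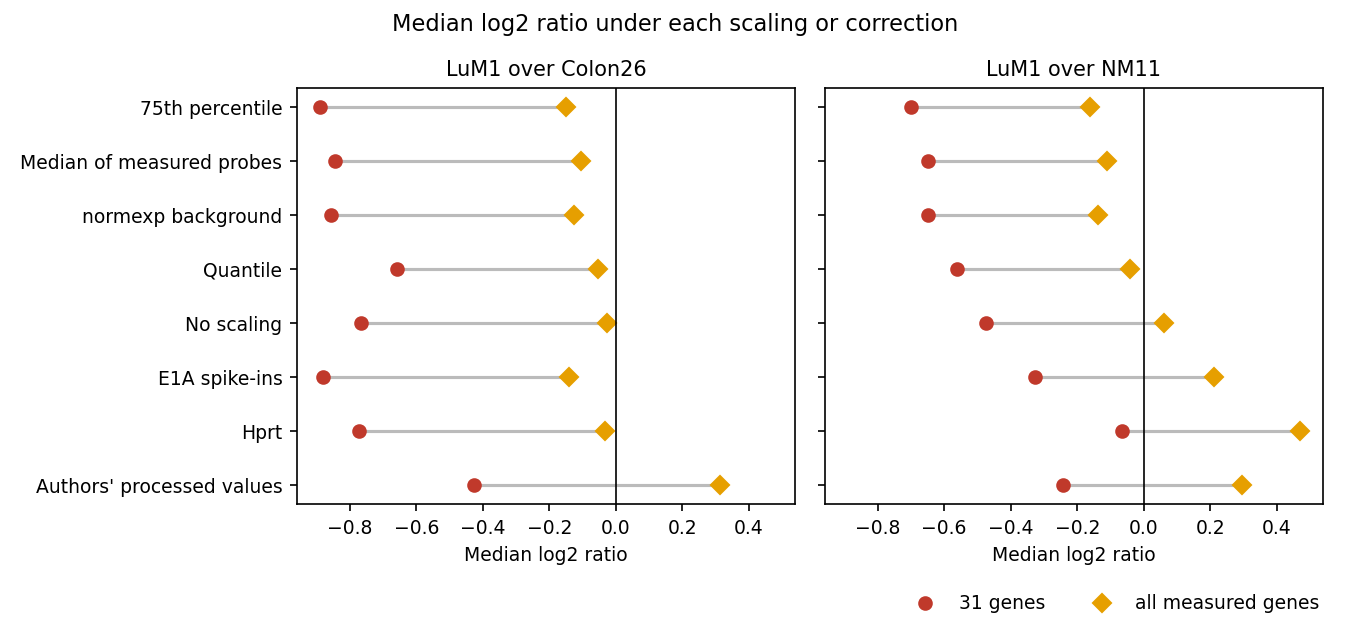
Median log2 ratio of the 31 genes (circles) and of all measured genes (diamonds) under 8 ways of scaling or correcting the arrays, for LuM1 over Colon26 (left) and LuM1 over NM11 (right). The circle lies left of the diamond in every line, and against NM11 it moves from -0.70 to -0.067 with scaling to *Hprt*, as all genes move with it.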

How the data were processed

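The authors deposited, for each of the 3 arrays (SurePrint G3 mouse, 1 dye), the spot intensity from Agilent Feature Extraction 11.5.1.1, background-subtracted and detrended but not scaled between arrays. The deposited files also hold flags of 0 or 1 for outliers, saturation and detection, which carry no unit, and a table of processed values, in which a constant (0.654 on the Colon26 array, 0.829 on that of LuM1, 0.706 on that of NM11) multiplies the intensity of every spot.

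Control and outlier spots were left out, spots of a probe were averaged, and arrays were brought to a common 75th percentile over distinct probes (398.0, 433.4 and 371.1 for Colon26, LuM1 and NM11 before scaling). Ratios were taken on the log2 scale, and a probe not well above background gave only a bound, set by the lowest signal well above background (26.4, 19.9 and 19.9). Of 56605 probes, 32989 (58.3%) were named through RefSeq accessions (GRCm38.p6). The brightest probe stood for its gene.

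No test was possible with 1 array per line, and precision is limited by the number of arrays. The gene list, the related lists and the markers were chosen with earlier results of these data known. The text names all 32 genes, at most 3 genes per direction of each related list that were at least 2-fold apart from both other lines, the markers and *Hprt*. Alternatives were signals left unscaled, scaling to *Hprt*, to the E1A spike-in controls or to the median measured probe, quantile normalization, normexp with an offset of 50 on median brightness, the authors' processed values, other detection and probe rules, outlier spots kept, clustered spots left out and a 4-fold threshold. Scaling over all spots was added after seeing the data. Python 3.11.15, numpy 2.4.6, pandas 2.3.3, matplotlib 3.10.9, R 4.3.3 and limma 3.58.1 were used. The 2-fold call was tested on simulated data in which the planted changes were 4-fold. Its recovery of differences near 2-fold was not tested.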

Additional observations from a re-analysis of the deposited data

How the results depend on the processing

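No paired analysis was possible because each line had 1 array. No result turned its direction among the called values. Scaling by 1 factor per array could not turn a 2-fold difference, because its largest shift was 0.63 (log2). Below 2-fold, directions did turn, for 9 of the 31 genes in LuM1 over NM11 with scaling to *Hprt*. For LuM1 over Colon26, the median of -0.89 became -0.66 with quantile normalization, -0.43 with the authors' processed values and -1.11 without clustered spots (25 genes left). The 14 genes at least 2-fold lower became 5 with the authors' values and 3 at 4-fold. The share of all named genes at least 2-fold lower was 12.2% and became 6.09% with the authors' values. For LuM1 over NM11, the median of -0.70 became -0.48 without scaling, -0.067 with *Hprt*, -0.33 with E1A controls, -0.24 with the authors' values and -0.94 without clustered spots (23 genes left). There the 11 lower genes became 6 with *Hprt*, 7 with E1A controls, 7 with quantile normalization, 7 with the authors' values and 3 at 4-fold. The share of all named genes that low was 9.42%. It became 3.52% with *Hprt*, 4.93% with E1A controls, 8.61% with quantile normalization and 4.43% with the authors' values. The 0 higher genes became 1 without scaling, 2 with *Hprt*, 1 with E1A controls and 1 with the authors' values. For NM11 over Colon26, the median of -0.04 became -0.55 with *Hprt* and -0.40 with E1A controls. The 0 lower genes became 1 without scaling, 3 with *Hprt* and 3 with E1A controls. The share of all named genes that low was 7.55%, and became 9.05% without scaling, 20.1% with *Hprt* and 14.7% with E1A controls. The 10 genes lower than both lines became 5 with *Hprt*, 5 with the authors' values and 2 at 4-fold. For genes lower than both lines, for higher genes and for the 4-fold threshold, shares of all named genes under the alternatives are not given here. Whether these counts moved more or less than all genes was therefore not tested. Scaling by 1 factor per array shifts all genes alike, and the median of all genes against NM11 shifted by 0.22 without scaling, 0.63 with *Hprt*, 0.37 with E1A controls and 0.46 with the authors' values, as well as by 0.12 with quantile normalization. For LuM1 over Colon26, the median of all genes shifted by 0.46 with the authors' values. For NM11 over Colon26, it shifted by -0.10 without scaling, -0.51 with *Hprt* and -0.36 with E1A controls. Leaving out clustered spots left fewer genes. The cause of moves under alternatives other than 1 factor per array was not tested. Scanner error and the lowest signals limit the dim genes *Slc7a3* and *Slc7a5*.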
